A study of Mus musculus with 8 samples.

Results

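The Sp100 family of nuclear body proteins and the Csprs repeat genes were followed on 11 array probes for 5 gene names: 1 probe for Sp100, 3 for Sp110, 3 for Sp140, 3 for Csprs and 1 for the predicted locus LOC100041903. These are 5 of the 31693 gene names on the array. The members were taken by gene name in the scanner output, and the names had been selected on the measured values of all 3 groups. The levels and differences of the members are therefore a description, and no p-value is given for them. Counts of member probes that pass a threshold stand beside the share of all tested probes, and nothing is read from them. IEC10 cells, an immortalized intestinal epithelial line derived from a mouse carrying firefly luciferase under control of the Mx2 promoter, were grown on transwell inserts for 21 days. They were left untreated (control, 2 arrays, replicates 2 and 3) or stimulated for 9 h with 20 ng/mL IFN-λ2 (3 arrays) or 500 U/mL IFN-β (3 arrays). All arrays thus come from 1 cell line, and nothing in the labels shows that replicates were separate cultures, so that the errors measure the spread between these samples. The 2 cytokines were given at 1 dose each in different units, so that a difference between them is a difference between these 2 stimulations.

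Type I interferons such as IFN-β and type III interferons such as IFN-λ2 bind different receptors and activate a shared set of transcription factors, which bind interferon-stimulated response elements in the promoters of their target genes. Sp100, Sp110 and Sp140 are interferon-inducible nuclear proteins that share an N-terminal self-association domain and a DNA-binding SAND domain. Sp100 is a permanent component of PML nuclear bodies, dot-like assemblies that restrict the genomes of incoming viruses. Sp110 lies in the mouse locus that sets susceptibility to tuberculosis, and Sp140 reads histone marks through a PHD finger and a bromodomain and is best known from leukocytes. Csprs, named as a component of Sp100-rs, belongs to a repeat cluster on mouse chromosome 1 in which Sp100-related sequence was copied many times in some mouse strains. The array coordinates place the Csprs probes elsewhere, on chr8_random. The array design describes LOC100041903 as similar to a putative G-protein coupled receptor.

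Because probes of the same gene gave different answers, each probe is named here by its gene and by the base of the target transcript at which it starts. The sequences of the Csprs, LOC100041903 and Sp110 probes are shown since they bear on that disagreement. All are 60 bases long and written 5′ to 3′, with coordinates of the array files on mm9. Csprs-1017 (chr8_random:113214-113273), Csprs-1534 (chr8_random:112697-112756) and Csprs-2659 (chr8_random:111572-111631) lie on the minus strand, and LOC100041903-2672 (chr1_random:1086376-1086435) lies on the plus strand. Capitals mark the 46 consecutive bases that Csprs-2659 shares with LOC100041903-2672.
Csprs-1017: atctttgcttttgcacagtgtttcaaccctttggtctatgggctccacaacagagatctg
Csprs-1534: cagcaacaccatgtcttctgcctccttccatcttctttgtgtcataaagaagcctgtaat
Csprs-2659: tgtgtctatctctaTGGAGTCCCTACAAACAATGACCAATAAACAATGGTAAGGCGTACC
LOC100041903-2672: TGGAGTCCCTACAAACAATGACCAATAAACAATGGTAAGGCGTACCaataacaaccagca
The overlap runs from base 15 to base 60 of Csprs-2659 and from base 1 to base 46 of LOC100041903-2672. A transcript of either locus could bind both probes, and the 2 loci cannot be told apart on this array. The Csprs probes shared no run of 20 or more bases with each other.

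The 3 Sp110 probes lie on chr1, minus strand: Sp110-257 at chr1:87492576-87492635, Sp110-1677 at chr1:87473677-87473736 and Sp110-1843 at chr1:87473511-87473570. Capitals mark a run of alternating T and G of 37 bases in Sp110-1677.
Sp110-257: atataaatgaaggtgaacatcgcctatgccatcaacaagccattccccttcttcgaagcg
Sp110-1677: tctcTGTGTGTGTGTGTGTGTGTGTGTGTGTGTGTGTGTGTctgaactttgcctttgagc
Sp110-1843: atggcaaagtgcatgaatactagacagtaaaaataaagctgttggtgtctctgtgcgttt
The array held 51 other probes with such a run of at least 20 bases on the same strand, for 51 other gene names. Sp100-2091 (chr1:87605957-87606016) and the Sp140 probes Sp140-667 (chr1:87507329-87507388), Sp140-2048 (chr1:87541244-87541303) and Sp140-2357 (chr1:87541553-87541612) lie on the plus strand of chr1. None of these 4 shared 20 or more consecutive bases with another probe.

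Signals are given in normalized gPS units, the background-subtracted processed signal scaled so that the 75th percentile of each array is 1500, with a floor of 15 units. Between 20992 and 24252 of 39429 probes were well above background on an array, and no feature was saturated. The array of IFN-λ2 replicate 2 had the fewest such probes. All 10 epithelial marker genes, among them Epcam, Cdh1 and Vil1, were well above background on all 8 arrays. Vil1 was dim, at 36.9 to 62.6 units. The summed signal of the 10 genes was 327081 to 350837 units in control, 319913 to 367161 with IFN-β and 361982 to 381801 with IFN-λ2. This IFN-λ2 range lay above that of control, and its part in the results was not tested. Krt18, the largest term, gave 183584 to 190042 units in control and 213925 to 228232 with IFN-λ2. Cdh1, Krt19, Tjp1 and Elf3 also lay above control with IFN-λ2. Epcam, Krt8, Vil1 and Cldn7 overlapped control, and Cldn3 lay below it, at 27188 to 28059 against 38211 to 46798 units. None of the 10 was called in any comparison. Of 14 leukocyte marker genes 6 were well above background on all arrays, with Ptprc well above background on none of the control or IFN-λ2 arrays and on 2 of 3 IFN-β arrays. The summed leukocyte signal ranged from 10798 to 14194 units in control, from 9478 to 15993 with IFN-β and from 9264 to 11443 with IFN-λ2. The IFN-λ2 range of the sum thus overlapped that of control, but Cd74 did not follow the sum. Cd74, the invariant chain of MHC class II, gave 136 to 151 units in control, 170 to 182 with IFN-β and 630 to 727 with IFN-λ2 and was called higher with IFN-λ2 in both comparisons. Itgam, the largest term in the control sum, gave 5389 to 7649 units in control and 1949 to 3439 with IFN-λ2 and was not called. The part of other cells in the results was not tested. Of 6 fibroblast and endothelial marker genes 1 was well above background on all arrays, and their summed signal overlapped between the groups.

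**Figure D1:**
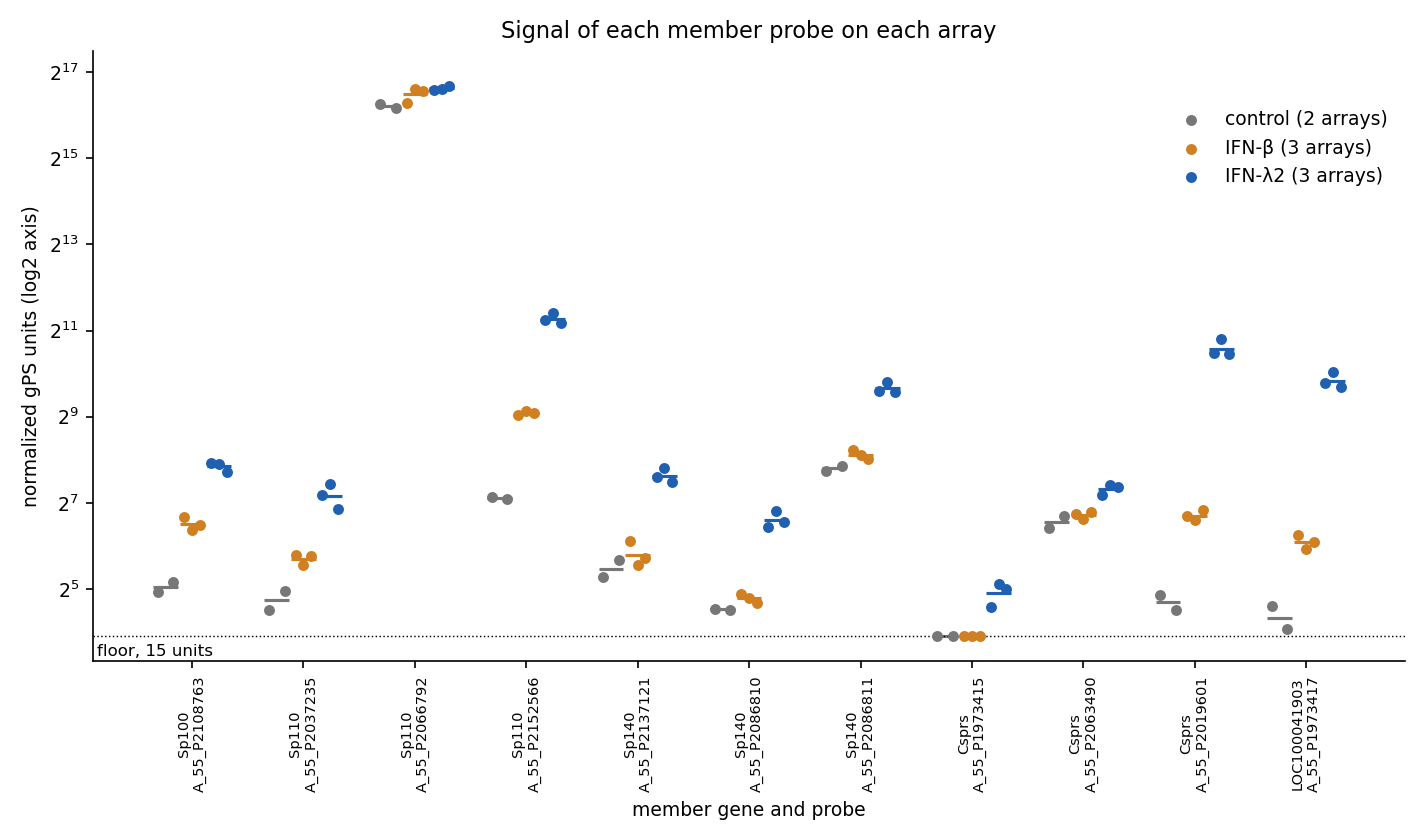
Signal of the 11 member probes on each array in normalized gPS units on a log2 axis. Points are arrays, short lines are group means of the log2 values and the dotted line is the floor of 15 units. The 3 IFN-λ2 arrays lie above both control arrays for all 11 probes, and Sp110-1677 (A_55_P2066792) lies far above the range of the others in every group.

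Csprs-2659 gave the largest difference among the members. Its signal was 29.1 and 22.8 units on the control arrays, 103, 96.4 and 113 units with IFN-β and 1424, 1785 and 1407 units with IFN-λ2. In such bulk samples, more cells with a transcript and more RNA per cell cannot be told apart. The 3 groups did not overlap, and every IFN-λ2 array was more than 10 times above every IFN-β array. The mean was 25.9 ± 4.47 units (SD, n = 2) in control, 104 ± 8.53 units (SD, n = 3) with IFN-β and 1539 ± 213 units (SD, n = 3) with IFN-λ2. On the log2 scale IFN-λ2 exceeded control by 5.89 ± 0.15 (SE, from limma), a 59.4-fold difference and the second highest of the 25583 probes tested. IFN-β exceeded control by 2.01 ± 0.15 (4.04-fold), and IFN-λ2 exceeded IFN-β by 3.88 ± 0.14 (14.7-fold).

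LOC100041903-2672, which shares most of its sequence with Csprs-2659, followed the same order. It gave 24.3 and 16.7 units in control, 76.1, 60.5 and 68.1 units with IFN-β and 883, 1050 and 820 units with IFN-λ2, again with no overlap between groups. The log2 difference was 5.50 ± 0.19 for IFN-λ2 against control, 1.75 ± 0.19 for IFN-β against control and 3.75 ± 0.17 for IFN-λ2 against IFN-β. As the probes share 46 bases, their likeness is no second observation of the same difference. With normexp background correction the IFN-λ2 difference from control was 4.31 for Csprs-2659 and 3.78 for LOC100041903-2672, and the IFN-β difference was 0.95 and 0.70, both below 2-fold.

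The other Csprs probes did not show a difference of that size. Csprs-1534 gave 85.1 and 103 units in control, 106, 98.9 and 110 units with IFN-β and 145, 170 and 165 units with IFN-λ2. Control and IFN-β overlapped, while all IFN-λ2 arrays lay above both. The log2 difference was 0.77 ± 0.12 for IFN-λ2 against control, 0.16 ± 0.12 for IFN-β against control and 0.61 ± 0.10 for IFN-λ2 against IFN-β. Csprs-1017 was at the floor of 15 units and not well above background on all control and IFN-β arrays, and it read 23.9, 34.8 and 31.9 units with IFN-λ2, where 2 of 3 arrays were well above background. For a bound, the dim side was taken at the lowest signal well above background on each array. This bound was 1.80-fold for IFN-λ2 against control and 1.52-fold against IFN-β. It includes IFN-λ2 replicate 2, the brightest array at 34.8 units, which was itself not well above background. Along the annotated transcript, the IFN-λ2 difference from control was thus 0.77 at base 1534 and 5.89 at base 2659, a gap far above their SE, while at base 1017 only the bound is known. The part of transcript ends, isoforms or repeat copies in this was not tested.

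Sp110 has 3 probes, and on each of them every array of either cytokine lay above both control arrays, by very different amounts. Sp110-1843 gave 140 and 136 units in control, 524, 562 and 545 units with IFN-β and 2409, 2706 and 2330 units with IFN-λ2. The groups were widely separated and the arrays within each group close together. The log2 difference was 4.17 ± 0.09 for IFN-λ2 against control (17.9-fold), 1.98 ± 0.09 for IFN-β against control (3.94-fold) and 2.19 ± 0.08 for IFN-λ2 against IFN-β (4.56-fold). Sp110-257, near the start of the transcript, gave 22.8 and 31.1 units in control, 55.0, 46.7 and 54.1 units with IFN-β and 145, 173 and 116 units with IFN-λ2. The order of the groups was the same, with differences of 2.42 ± 0.20 for IFN-λ2 against control, 0.96 ± 0.20 for IFN-β against control and 1.46 ± 0.18 between the cytokines on the log2 scale. The IFN-β difference of Sp110-257 was 0.36 with normexp and 0.08 with a floor of 50 units, and its IFN-λ2 difference was 1.45 and 1.51.

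Sp110-1677, the probe with the TG run, stood apart. It read 79018 and 73731 units in control, 79899, 100341 and 97151 units with IFN-β and 99230, 100453 and 105182 units with IFN-λ2. IFN-λ2 and IFN-β overlapped, and IFN-λ2 exceeded control by 0.41 ± 0.11 on the log2 scale, IFN-β exceeded control by 0.27 ± 0.11 and IFN-λ2 exceeded IFN-β by 0.14 ± 0.10. All 51 other probes with a TG run, for genes that include Ung, Pak4 and Dennd4a, lay in a narrow range of the same size. Their IFN-λ2 difference from control ran from 0.32 to 0.69 with a median of 0.52, and their IFN-β difference from control ran from 0.14 to 0.32 with a median of 0.26. Sp110-1677 fell inside both ranges, and the 2 Sp110 probes without the run fell outside them. None of the 51 was called in any of the 3 comparisons by an adjusted p under 0.05 and a 2-fold change.

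**Figure D2:**
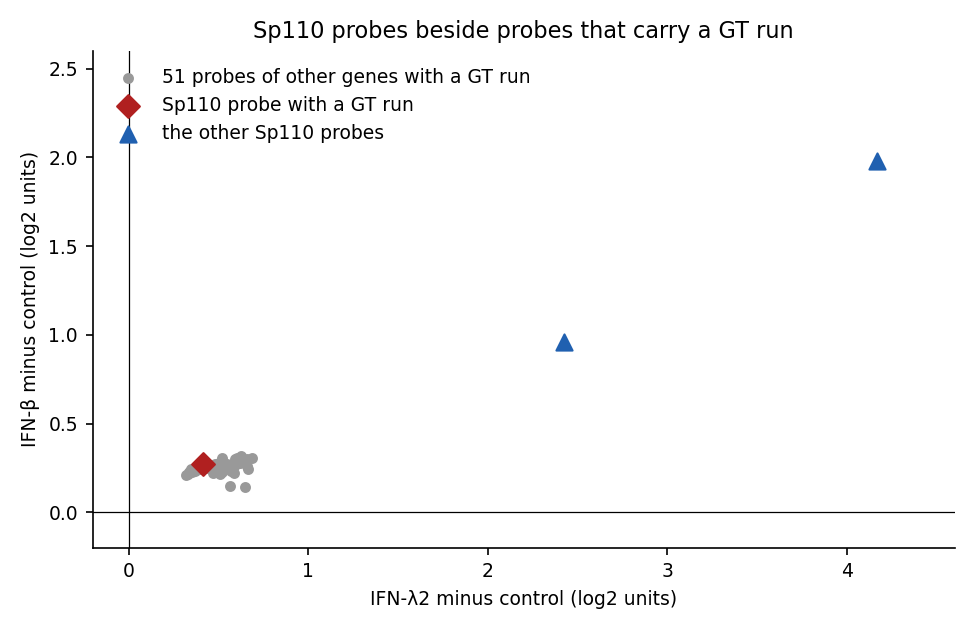
Difference from control on the log2 scale with IFN-λ2 (horizontal) and IFN-β (vertical) for the 3 Sp110 probes and for 51 probes of other genes that carry a run of at least 20 alternating T and G. Sp110-1677, at 0.41 and 0.27, lies among the probes with a run, while the other Sp110 probes lie at 2.42 and 0.96 and at 4.17 and 1.98.

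Sp100, the nuclear body component, has a single probe. It gave 30.3 and 35.5 units in control, 102, 82.1 and 90.1 units with IFN-β and 244, 238 and 211 units with IFN-λ2. Each group lay apart from the others, with means of 32.9 ± 3.68 (SD, n = 2), 91.5 ± 10.1 (SD, n = 3) and 231 ± 17.4 (SD, n = 3). IFN-λ2 exceeded control by 2.82 ± 0.12 on the log2 scale (7.04-fold), IFN-β exceeded control by 1.48 ± 0.12 (2.78-fold) and IFN-λ2 exceeded IFN-β by 1.34 ± 0.11 (2.53-fold). With normexp background correction these differences were 1.78, 0.68 and 1.10, so that the IFN-β difference was below 2-fold there.

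Sp140, the bromodomain protein of the family, was higher with IFN-λ2 on all 3 probes, and its IFN-β values lay close to control. The brightest probe, Sp140-2357, gave 214 and 231 units in control, 300, 277 and 258 units with IFN-β and 774, 900 and 767 units with IFN-λ2. IFN-β lay just above control, and IFN-λ2 lay well above both. Its log2 difference was 1.87 ± 0.11 for IFN-λ2 against control (3.65-fold), 0.32 ± 0.11 for IFN-β against control (1.25-fold) and 1.55 ± 0.09 for IFN-λ2 against IFN-β (2.92-fold). Sp140-2048 gave 23.1 and 22.8 units in control, 29.7, 27.5 and 25.6 units with IFN-β and 86.4, 112 and 93.5 units with IFN-λ2, and Sp140-667 gave 38.5 and 51.2, then 68.7, 46.8 and 52.7, then 193, 223 and 178 units. Control and IFN-β overlapped on Sp140-667 and were separate on Sp140-2048. The IFN-λ2 difference from control was 2.07 ± 0.12 and 2.15 ± 0.20, and the IFN-β difference was 0.26 ± 0.12 and 0.32 ± 0.20, so that the 3 Sp140 probes, spread over most of the transcript, gave similar differences. With a floor of 50 units, above the control and IFN-β signal of Sp140-2048, the IFN-λ2 difference from control was 0.95 for Sp140-2048, below 2-fold, 1.96 for Sp140-667 and 1.87 for Sp140-2357. With normexp it was 1.19, 1.45 and 1.66.

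**Figure D3:**
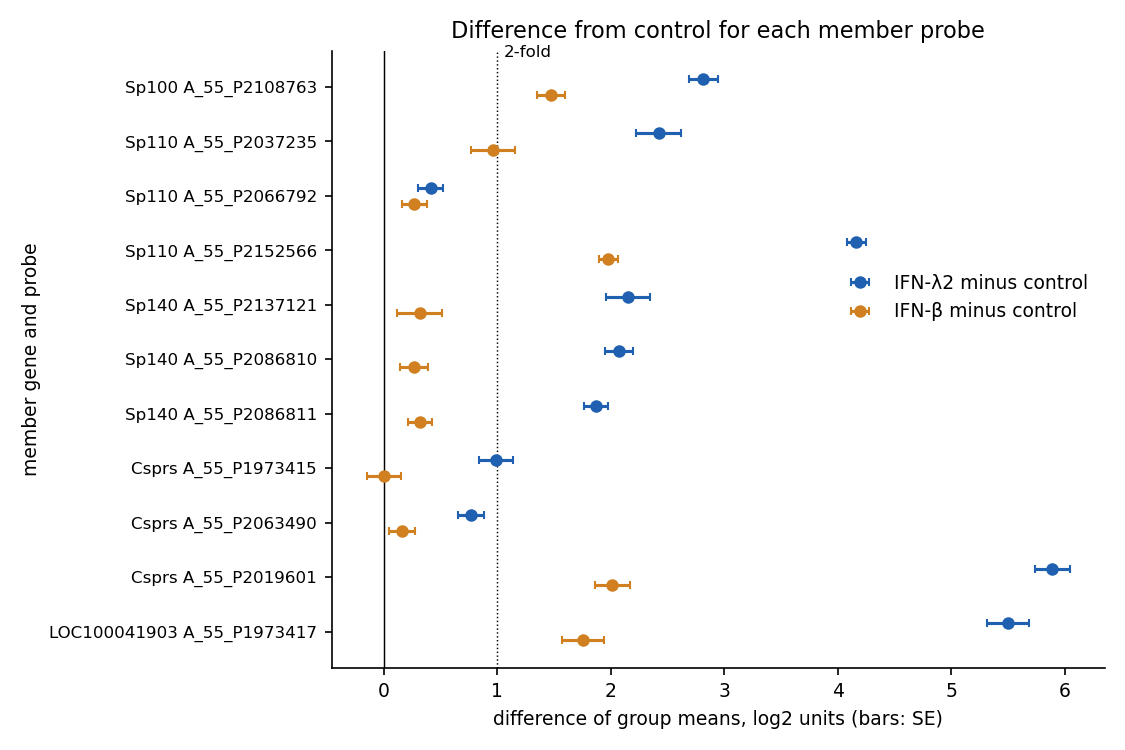
Difference of group means from control on the log2 scale for each member probe, with IFN-λ2 in blue and IFN-β in orange. Bars are the SE from limma and the dotted line marks 2-fold. IFN-λ2 differences run from 0.41 for Sp110-1677 (A_55_P2066792) to 5.89 for Csprs-2659 (A_55_P2019601), and the 3 Sp140 probes have IFN-β differences between 0.26 and 0.32. The point of Csprs-1017 (A_55_P1973415) is set by the floor.

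Ordered by level, each of the 11 probes was highest with IFN-λ2, followed by IFN-β and then control, except that Csprs-1017 was at the floor in control and IFN-β. Every IFN-λ2 array lay above every control array for 11 of 11 member probes, and 26.6% of all tested probes did the same. Every IFN-β array lay above every control array for 8 of 11, against 14.7% of all tested probes, and every IFN-λ2 array lay above every IFN-β array for 10 of 11, against 17.9%. By an adjusted p under 0.05 and a 2-fold change, 8 of 11 member probes were called higher with IFN-λ2 than in control, against 2.75% of all 25583 probes tested. The corresponding counts were 4 of 11 for IFN-β against control (background 0.907%) and 8 of 11 for IFN-λ2 against IFN-β (background 1.47%). As the members were chosen by these values, nothing is read from the counts. The median log2 difference over the members was 2.15, 0.32 and 1.55 in the 3 comparisons, and over all tested probes it was 0.01, 0.01 and 0.00.

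Arrays with the same replicate number shared a slide, so the difference was also taken within each slide. For IFN-λ2 minus IFN-β the 3 slides gave 3.79, 4.21 and 3.63 for Csprs-2659 on the log2 scale. They gave 2.20, 2.27 and 2.09 for Sp110-1843. For Sp100 the values were 1.26, 1.53 and 1.23, and for Sp140-2357 they were 1.37, 1.70 and 1.57. The within-slide differences had the same direction on all 3 slides for these 4 probes, and slide 2 gave the highest value for each. IFN-λ2 minus control on slides 2 and 3 was 5.94 and 5.95 for Csprs-2659, 4.28 and 4.10 for Sp110-1843, 2.97 and 2.58 for Sp100 and 2.07 and 1.73 for Sp140-2357. Arrays of 1 group always took 1 position on their slides, and position and treatment cannot be told apart.

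The array also carried 13 probes that are no members but are described as similar to Sp100, Sp110 or Sp140, for 11 gene names, most of them predicted loci on chr1 or its unplaced part. These were not used to choose the members, and 7 of the 13 were tested. LOC100041034, described as similar to Sp110 (chr1_random:842254-842313), gave 69.5 to 74.5 units in control, 238 to 259 with IFN-β and 965 to 1301 with IFN-λ2. Its log2 difference was 3.92 ± 0.13 for IFN-λ2 against control (adjusted p = 4.4e-06 from limma), 1.79 ± 0.13 for IFN-β against control (adjusted p = 0.00038) and 2.14 ± 0.12 for IFN-λ2 against IFN-β (adjusted p = 0.00021). These differences lie close to those of Sp110-1843, with which the probe shares no run of 20 bases. Probes were compared only with probes, and whether this one also binds Sp110 RNA was not tested.

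Among loci described as similar to Sp140, 3 probes rose with IFN-λ2 and were not called with IFN-β. Whether these probes also bind Sp140 RNA was not tested. Gm2397 (chr1:85109017-85109076) gave 28.6 to 30.2 units in control, 24.3 to 33.0 with IFN-β and 150 to 167 with IFN-λ2. Its difference was 2.40 ± 0.13 for IFN-λ2 against control (adjusted p = 5.4e-05 from limma), -0.03 ± 0.13 for IFN-β against control (adjusted p = 0.96) and 2.43 ± 0.12 for IFN-λ2 against IFN-β (adjusted p = 0.00013). Gm5831 had 1 probe (chr9:42774035-42774094) with differences of 2.41 ± 0.13 for IFN-λ2, 0.61 ± 0.13 for IFN-β and 1.80 ± 0.12 between the cytokines (adjusted p = 4.8e-05, 0.093 and 0.00033 from limma). Its second probe, at chr9:42776227-42776286, gave -0.31 ± 0.12 with IFN-λ2 (adjusted p = 0.12) and was not called in any comparison, so that the Gm5831 probes disagree as those of Csprs and Sp110 do. LOC100041708 differed by 1.67 ± 0.15 with IFN-λ2, by 0.35 ± 0.15 with IFN-β and by 1.32 ± 0.14 between the cytokines (adjusted p = 0.00058, 0.42 and 0.0018 from limma). Of the 7 tested probes, 4 were called higher with IFN-λ2 than in control and 1 with IFN-β than in control. In the direct comparison of the cytokines 4 were called higher on the IFN-λ2 arrays. Over all tested probes the shares called higher were 2.75%, 0.907% and 1.47%. The tested probes of LOC100046253 and LOC677525 were near the floor and not called, and the 6 untested probes were at the floor in all 3 groups.

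Gene neighbours of Sp110, Sp140 and Sp100 were taken as the 5 protein-coding genes before and the 5 after them on chromosome 1 in the GRCm38.p6 gene table, and 5 of these 10 had a tested probe. On the side before Sp110, C130026I21Rik had 2 probes. The first gave 15 to 18.9 units in control, 18.4 to 28.0 with IFN-β and 72.1 to 86.4 with IFN-λ2, and no control array was well above background. On the log2 scale IFN-λ2 exceeded control by 2.23 ± 0.19 (4.69-fold, adjusted p = 0.00044 from limma), with the lower control array at the floor. It exceeded IFN-β by 1.78 ± 0.17 (adjusted p = 0.0013). The second probe was at the floor in control and IFN-β and at 22.2 to 41.4 units with IFN-λ2, where 2 of 3 arrays were well above background. The bound against control was at least 1.95-fold higher. Against IFN-β the bound was at least 1.64-fold higher. Gm7609 was at the floor in control, at 15 to 17.9 units with IFN-β and at 20.3 to 43.9 units with IFN-λ2, at least 1.85-fold above control. These 2 probes met the filter on low values only through the IFN-λ2 arrays, where they are high, so their values are given as a description with no test.

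On the side after Sp100, the 3 genes with a tested probe were not called. Cab39, a scaffold of the kinase LKB1, differed from control by 0.37 ± 0.15 on its brighter probe with IFN-λ2 (adjusted p = 0.12 from limma) and by 0.16 ± 0.15 with IFN-β (adjusted p = 0.73). Itm2c, a membrane protein gene, differed by -0.14 ± 0.10 with IFN-λ2 (adjusted p = 0.38). A630001G21Rik was near the floor in every group, and Gpr55 and Spata3 were at the floor on all their probes.

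**Figure D4:**
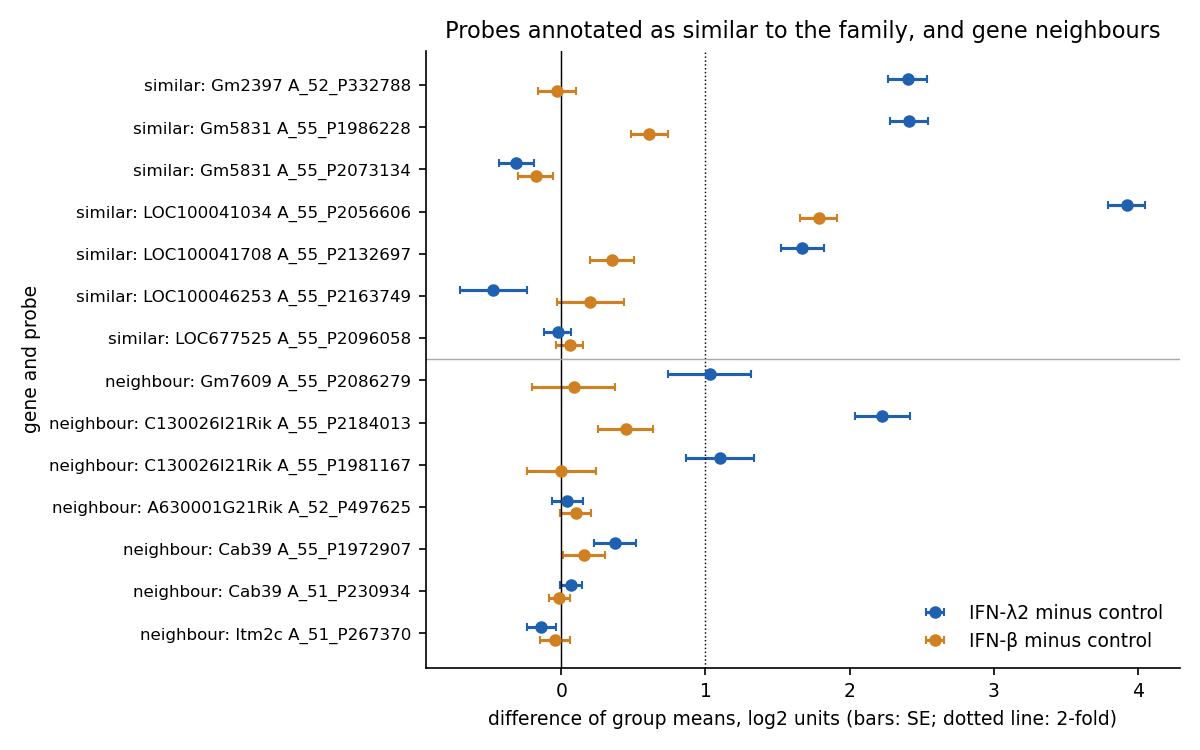
Difference of group means from control on the log2 scale with SE for the 7 tested probes described as similar to a family member (top) and the 7 tested probes of gene neighbours (bottom). IFN-λ2 is blue, IFN-β is orange and the dotted line is 2-fold. LOC100041034 is the only similar probe past 2-fold with IFN-β, at 1.79, and the Cab39 and Itm2c probes lie within 0.38 of 0. The points of Gm7609 (A_55_P2086279) and of A_55_P1981167 are set by the floor.

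Promoters of Sp100, Sp110 and Sp140 were read from RefSeq on GRCm38.p6, from 250 bases before to 50 bases after the gene start. They are shown for the 3 family members for which the table held an entry. The table held 2 starts for Sp100, 2 for Sp110 and 1 for Sp140, and Csprs and LOC100041903 are named only. The letters GAAANNGAAA, an interferon-regulatory-factor-like motif found on either strand in 3.44% of 32851 promoters of the same length, and TTCNNNGAA, a STAT-like motif held by 8.30%, had no match in any of the 5. A search for GAAANNNGAAA, added after the sequences were seen and also read on both strands, matched 2.75% of all promoters. Among the members it matched both overlapping Sp100 windows and 1 of the 2 Sp110 windows, in each case on the strand opposite to the gene. Capitals mark these matches in the Sp100 promoter (chr1:85649738-85650037, plus strand) and in the second Sp110 promoter (chr1:85598761-85599060, minus strand), and the Sp140 promoter (chr1:85600453-85600752, plus strand) has none.
Sp100: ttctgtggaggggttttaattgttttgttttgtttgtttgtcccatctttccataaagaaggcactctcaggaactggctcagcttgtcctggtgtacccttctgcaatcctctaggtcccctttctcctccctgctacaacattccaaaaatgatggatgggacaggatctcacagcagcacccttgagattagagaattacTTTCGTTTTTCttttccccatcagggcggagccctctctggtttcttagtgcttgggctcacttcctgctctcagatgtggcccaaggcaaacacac
Sp110: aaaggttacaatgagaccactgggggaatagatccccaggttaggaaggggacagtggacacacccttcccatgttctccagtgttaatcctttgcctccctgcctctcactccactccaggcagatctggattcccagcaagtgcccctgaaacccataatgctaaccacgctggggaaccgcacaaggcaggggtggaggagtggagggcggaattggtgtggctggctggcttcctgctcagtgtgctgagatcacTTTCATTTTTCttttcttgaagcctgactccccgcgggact
Sp140: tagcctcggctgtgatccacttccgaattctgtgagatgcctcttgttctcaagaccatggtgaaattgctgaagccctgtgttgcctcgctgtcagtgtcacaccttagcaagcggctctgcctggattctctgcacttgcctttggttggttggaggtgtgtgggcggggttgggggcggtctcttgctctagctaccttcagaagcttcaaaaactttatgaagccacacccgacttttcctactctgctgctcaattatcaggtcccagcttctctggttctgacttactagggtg
The match starts 47 bases before the gene start in Sp100 and 9 bases after it in Sp110. A letter match is a description of the sequence and does not show that a factor binds there.

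Sp100 is held in nuclear bodies together with Pml, the scaffold protein, and Daxx, a histone chaperone, so the genes of these bodies were set beside the family. Of 19 nuclear body genes, each read on its tested probe with the highest mean, 2 were called higher and none lower with IFN-λ2, 2 were called higher and none lower with IFN-β, and none was called between the cytokines. The shares of all tested probes called higher were 2.75%, 0.907% and 1.47%. The 2 were the same with both cytokines, Daxx and the exonuclease gene Isg20. Daxx gave 6586 ± 371 units in control (SD, n = 2), 13616 ± 280 with IFN-β (SD, n = 3) and 13247 ± 979 with IFN-λ2 (SD, n = 3). Its log2 difference was 1.01 ± 0.08 with IFN-λ2 (adjusted p = 0.00041 from limma) and 1.05 ± 0.08 with IFN-β (adjusted p = 0.00071), and IFN-λ2 minus IFN-β was -0.04 ± 0.08 (adjusted p = 0.78). Isg20 differed by 1.99 ± 0.11 with IFN-λ2 (adjusted p = 4.9e-05) and 1.75 ± 0.11 with IFN-β (adjusted p = 0.00014), with 0.24 ± 0.10 between the cytokines (adjusted p = 0.18). Pml differed by 0.85 ± 0.07 with IFN-λ2 and by 0.87 ± 0.07 with IFN-β on its brighter probe (adjusted p = 0.00029 and 0.00050 from limma), below 2-fold, and by 1.13 ± 0.09 and 1.02 ± 0.09 on its other probe (adjusted p = 0.00038 and 0.0015), which met the threshold with both cytokines but is not in the count. IFN-λ2 minus IFN-β for Pml was -0.01 ± 0.06 and 0.11 ± 0.08 (adjusted p = 0.92 and 0.45). Atrx, the chromatin remodeller that acts with Daxx, had 3 tested probes, none of them called. The brightest differed from control by -0.09 ± 0.13 (adjusted p = 0.68 from limma), and the others by 0.48 ± 0.19 (adjusted p = 0.13) and -0.46 ± 0.23 (adjusted p = 0.21). Between the cytokines the Atrx probes differed by 0.04 ± 0.12, 0.66 ± 0.17 and 0.19 ± 0.20 (adjusted p = 0.89, 0.053 and 0.62).

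Of 17 SUMO conjugation and removal genes, whose products attach a small modifier to PML and Sp100, none was called in any comparison on the probe with the highest mean. The SUMO ligase gene Pias3 differed from control by -0.91 ± 0.12 with IFN-λ2 on the probe used (adjusted p = 0.0032 from limma, below 2-fold), and on its other probe the difference was -1.14 ± 0.18 (adjusted p = 0.0061), which met the threshold as lower. None of 17 chromatin reader genes with SAND, PHD or bromodomains was called either, on any tested probe. Over the 3 lists, 15 of 53 tested genes had an unadjusted p under 0.05 from limma for IFN-λ2 against control, 8 for IFN-β against control and 5 for IFN-λ2 against IFN-β. Of all tested probes, 33.7%, 12% and 25.7% had such a p in the 3 comparisons. The median log2 difference of the nuclear body genes was 0.03 with IFN-λ2 and 0.06 with IFN-β, beside 0.01 over all tested probes in both comparisons. The difference of Daxx lies at the 2-fold limit, and its call for IFN-λ2 against control was lost under normexp, quantile normalization, or either other scaling. Leaving out IFN-λ2 replicate 2 or control replicate 2 also lost it, with differences of 0.95 in both cases, and without control replicate 2 the IFN-β difference of Daxx was 0.99.

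**Figure D5:**
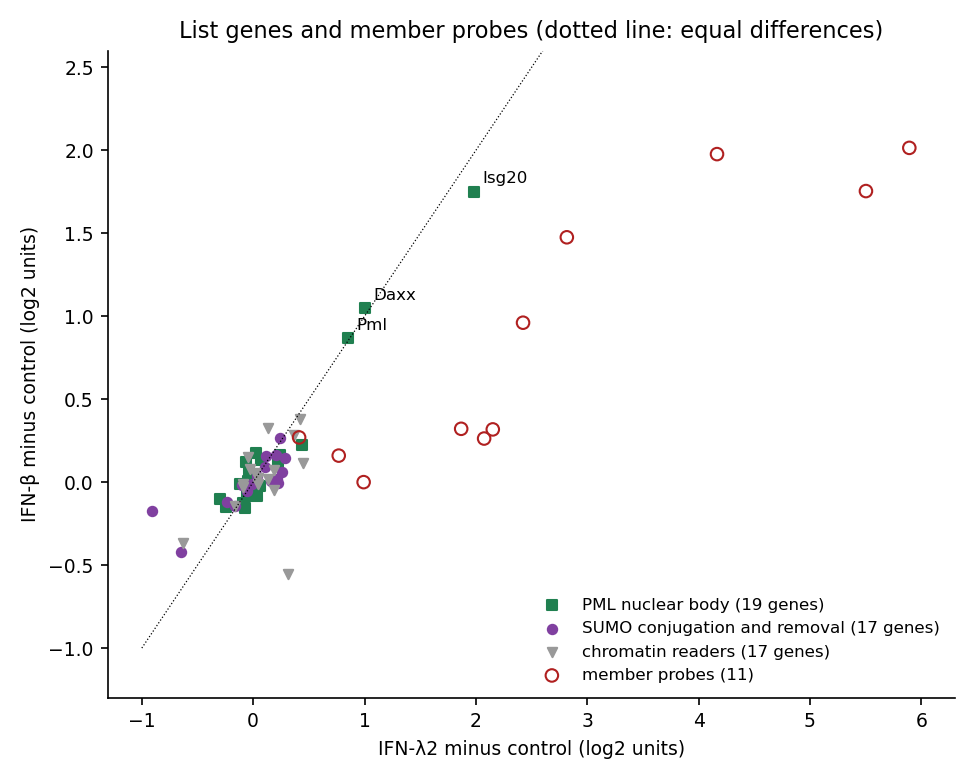
Difference from control on the log2 scale with IFN-λ2 (horizontal) and IFN-β (vertical) for 53 list genes and the 11 member probes. Squares are nuclear body genes, circles SUMO genes, triangles chromatin readers and open circles member probes, and the dotted line marks equal differences. Pml, Daxx and Isg20 lie close to the line, and all member probes lie to its right.

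Genes whose signal followed a member most closely over the 8 arrays were found among 1079 probes that were well above background with IFN-λ2 and spanned at least 1 log2 unit between group means. These correlations largely reflect the 3 group means and are given as a description. For Sp100 the 5 closest were Mb (r = 0.997), Il1f6 (0.997), Cd274 (0.994), Hmga1 (0.994) and Pnpla7 (0.994). Cd274 encodes the checkpoint ligand PD-L1, and Mb encodes myoglobin. For Sp140 they were Gstm2 (r = 0.998), Gstm4 (0.997), Rsph1 (0.996), Prodh (0.995) and Hgfac (0.994), the first pair being glutathione transferases. Gstm2 differed from control by 1.92 with IFN-λ2 and by 0.31 with IFN-β on the log2 scale, beside 1.87 and 0.32 for Sp140-2357.

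For Csprs-2659 the closest were a probe for ENSMUST00000111365 (r = 0.994), the PYHIN family genes Ifi208 (0.993) and Ifi209 (0.993), a probe for ENSMUST00000093501 (0.991) and Ttll9 (0.991). The array design assigns both transcript-named probes to 1 gene, A530040E14Rik. The ENSMUST00000093501 probe (chr1:85109086-85109145, plus strand) lies beside that of Gm2397 and differed from control by 3.97 with IFN-λ2 and 1.60 with IFN-β on the log2 scale. For LOC100041903-2672 they were ENSMUST00000093501 (r = 0.992), Ttll9 (0.992), Zfp467 (0.992), Prodh (0.992) and ENSMUST00000111365 (0.991). The rule took the brightest Sp110 probe, Sp110-1677 with its TG run, for which they were Mlkl (r = 0.959), Sct (0.941), Il1rl1 (0.927), Trafd1 (0.910) and Rab19 (0.909). For Sp110-1843, added after the values were seen, they were Ifi208 (r = 0.999), Hmga1 (0.997), Cd274 (0.996), Ifi27l2a (0.994) and Mb (0.992).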

How the data were processed

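The authors hybridized RNA of 8 samples to 1-color Agilent arrays, extracted features with Agilent Feature Extraction 10.7.3.1 and deposited the processed intensity of each feature, with the background subtracted, and a table of scaled intensities. The deposited flags for outliers, saturation and signal well above background were also used. Signals were scaled to a 75th percentile of 1500 over all non-control features, which matched the deposited table within 0.1% for 11 of 11 member probes, floored at 15 and converted to log2. Outlier features were left out. The 25583 of 39429 probes that exceeded the floor on 2 or more arrays entered 1 limma 3.58.1 fit (R 4.3.3) of the 3 group means without a block, with Benjamini-Hochberg adjustment over all probes. The fit was tested on simulated data. Tables were made with Python 3.11.15.

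The members and gene lists were chosen with earlier results of these data known. Named genes are all member probes, probes described as similar to Sp100, Sp110 or Sp140, the 5 genes most correlated with each member, called list genes with Pml, Daxx and Atrx, and 10 neighbours. For list genes, the tested probe with the highest mean was used. Replicate number and slide are the same block. Deviations of IFN-λ2 and IFN-β arrays with the same number correlated at 0.19, 0.25 and 0.30, so that the numbers pair these groups. Their correlations with control lay between -0.08 and 0.10. The labels and the methods name different RNA extraction kits.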

Additional observations from a re-analysis of the deposited data

How the results depend on the processing

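Over 13 alternatives other than leaving out an array, no called member difference reversed. Normexp background correction moved the most, 23 of 33 member differences by more than 1 SD between replicates, and a floor of 50 units moved 11. For IFN-β against control the 4 member probes called higher became 1 with normexp, 2 with a floor of 50 units and 1 with the t-test of the methods (unadjusted p under 0.001). The 8 called for IFN-λ2 against control ranged from 6 with that t-test and 7 with a floor of 50 units to 9, and the 8 called between the cytokines from 7 with either of these to 9. Leaving out each array in turn gave 4 to 4 such probes for IFN-β against control, 8 to 9 for IFN-λ2 against control and 8 to 9 for IFN-λ2 against IFN-β. The fit with the replicate block called 9 member probes for IFN-λ2 against control, 4 for IFN-β against control and 8 in the direct comparison of the cytokines, where the fit without it called 8, 4 and 8. Of the list genes, the 2 called for IFN-λ2 against control became 1 with normexp, quantile normalization, the median of bright probes as scaling or a 75th percentile over probes, the last chosen after the data were seen. The 2 called for IFN-β against control became 1 with quantile normalization. Leaving out an array gave 1 to 2 for IFN-λ2 against control, the lower count without IFN-λ2 replicate 2. Without control replicate 2 that count was still 2, but Daxx was no longer called and Pias3 was, at -1.07. For IFN-β against control leaving out an array gave 1 to 2, the lower count without control replicate 2, and between the cytokines it gave 0 to 0. Over all probes the count higher with IFN-λ2 than in control ranged from 306 to 779 and that higher than with IFN-β from 204 to 427, with the lowest counts from the t-test of the methods, against 703 and 376 as reported, and the median log2 difference moved to at most 0.12. Csprs-1017 gave no value with a floor of 50 units, and its difference from control depended on the floor, at 1.71 with a floor of 1 unit. Levels near the floor limit the control side of Csprs-2659, LOC100041903-2672, Sp100, Sp110-257 and Sp140-2048.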
